A study of Saccharomyces cerevisiae with 30 samples.

Results

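The genes of purine synthesis, histidine synthesis and the folate-bound carbon units that feed both were followed through the metabolic cycle of budding yeast in a wild-type strain and in a Yaf9 mutant. The set holds 40 of the 7127 features in the deposited count table, chosen by gene symbol for their known roles. Earlier results of these data were known when it was chosen. It contains 9 genes of de novo IMP synthesis, 5 of the AMP and GMP branches, 4 of purine salvage and interconversion, 7 of histidine synthesis, 8 of one-carbon and glycine metabolism, 5 PRPP synthetases and 2 regulators.

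Both strains were Saccharomyces cerevisiae in the CEN.PK122-alpha background. The control was wild type (WT). The mutant, yaf9W89A (W89A below), carries a substitution in the YEATS domain of Yaf9, an acetyl-lysine reader shared by the SWR1 and NuA4 chromatin complexes. No deletion or transgene was stated for either strain. Cultures were grown in a chemostat with a constant oxygen supply until starved and were then fed a low-glucose medium, under which they pass through repeated respiratory cycles. Each strain was sampled at 5 time points in each of 3 consecutive cycles, which gave 10 groups of 3 libraries and 30 libraries in all. The labels state no separate cultures, so p-values measure the spread between cycles, and the strain and its culture cannot be told apart. The 5 time points are numbered in the order of sampling and carry no stage name. In W89A cycle 1, the libraries at time points 4 and 5 follow the authors' deposited comparison tables, which exchange them relative to the order of the titles.

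De novo purine synthesis builds IMP stepwise on PRPP, and IMP is then turned into AMP or GMP. Several of its steps take carbon units from folate, which serine hydroxymethyltransferase and the glycine decarboxylase complex supply. Histidine synthesis also starts from PRPP, consumes ATP and returns the intermediate AICAR to the purine route. Bas1, a Myb-related activator, works with the homeodomain protein Pho2 on ADE and one-carbon genes, and the activator Gcn4 drives amino acid synthesis genes, HIS genes among them. Bas1 and Gcn4 recognise the same 6-base core, TGACTC.

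All 40 genes passed the filter on low counts, as did 6256 of the 7127 features. Library totals were 16540627 to 20260295 counts, and the 40 genes held 0.474% to 3.12% of a library's counts. The 4 alpha-cell markers summed to between 1027 and 6698 reads per 1e6 counts (CPM) in every library of both strains. The 6 a-cell markers summed to between 40.5 and 92.4 CPM, and 3 of them, AGA2, STE2 and MFA2, were higher in W89A at time point 3. AGA2 was also higher at time point 4, and BAR1 was lower at time points 1, 4 and 5. Of the alpha-cell markers, SAG1 and STE3 were higher in W89A at time point 4 and MF(ALPHA)1 at time point 5. Their part in the results was not tested. Gene counts do not show the W89A substitution itself, so no count checks the genotype. Some libraries stood apart from their group in the share of counts held by the 40 genes. The W89A library of cycle 3 at time point 4 gave 1.15% of its counts to the 40 genes, against 0.474% and 0.498% in the other cycles. The WT library of cycle 1 at time point 1 gave 2.44%, against 2.03% and 1.95%. The W89A library of cycle 3 at time point 3 gave 2.55%, against 2.06% in cycle 2 and less in cycle 1. The WT library of cycle 3 at time point 2 gave 2.66%, against 3.12% and 3.08%. Counts of called genes at these time points are given with and without the library. The last libraries were kept in the fit that left out the WT cycle 1 and W89A cycle 3 libraries named first. Values of single genes include all libraries unless stated.

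The core TGACTC was looked for on both strands in the 300 bases before each start codon of the R64 reference genome (RefSeq). All upstream sequences are those of this reference, and the sequence of the CEN.PK122-alpha strains was not examined. It was found in 22 of the 40 genes (55%), in 466 of 6001 protein-coding genes of the nuclear chromosomes (7.77%) and in 21 of 30 genes of a list made of GCN4 and biosynthesis genes under it (70%). By role it stood before 7 of 9 genes of IMP synthesis (all but ADE4 and ADE16), 6 of 7 HIS genes (all but HIS2) and 6 of 8 one-carbon genes (all but MIS1 and SHM1). It stood before ADE12 and GUA1 of the AMP and GMP branches and APT1 of the salvage genes, and before 0 of 5 PRPP synthetases and 0 of 2 regulators. The upstream stretches of 5 genes are shown because the genes behind them took different courses in the data. Each is printed 5′ to 3′ on the gene's strand, from 300 to 101 bases before the start codon, with every copy of the core in capitals. HIS4 (chrIII:68434-68633, minus strand), which peaked at time point 3 in W89A, has 3 copies. SHM2 (chrXII:259502-259701, minus strand), the most abundant member per length in WT, has 2, and ADE17 (chrXIII:509381-509580, minus strand) has 1. ADE16 (chrXII:201416-201615, minus strand), which encodes the same enzyme as ADE17, and AAH1 (chrXIV:359296-359495, plus strand), the gene with the largest range, have 0 copies in the 300 bases.
HIS4: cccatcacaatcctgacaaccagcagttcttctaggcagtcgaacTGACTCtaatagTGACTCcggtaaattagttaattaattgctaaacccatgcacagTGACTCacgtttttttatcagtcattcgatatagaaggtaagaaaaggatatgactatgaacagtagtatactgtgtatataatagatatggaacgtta
SHM2: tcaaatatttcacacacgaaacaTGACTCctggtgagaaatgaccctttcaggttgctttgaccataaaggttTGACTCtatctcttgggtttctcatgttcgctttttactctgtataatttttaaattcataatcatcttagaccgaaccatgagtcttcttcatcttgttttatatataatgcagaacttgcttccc
ADE17: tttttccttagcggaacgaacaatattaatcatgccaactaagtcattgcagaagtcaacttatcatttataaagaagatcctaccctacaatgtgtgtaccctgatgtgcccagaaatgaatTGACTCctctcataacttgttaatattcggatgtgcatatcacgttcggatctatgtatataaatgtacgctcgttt
ADE16: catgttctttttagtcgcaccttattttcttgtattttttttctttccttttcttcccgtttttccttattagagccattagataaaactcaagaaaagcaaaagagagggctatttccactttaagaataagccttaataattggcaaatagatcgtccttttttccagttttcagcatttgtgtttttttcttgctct
AAH1: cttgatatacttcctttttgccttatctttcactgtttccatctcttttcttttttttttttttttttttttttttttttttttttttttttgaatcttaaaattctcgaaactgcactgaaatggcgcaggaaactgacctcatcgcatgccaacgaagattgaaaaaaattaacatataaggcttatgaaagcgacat

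**Figure D1:**
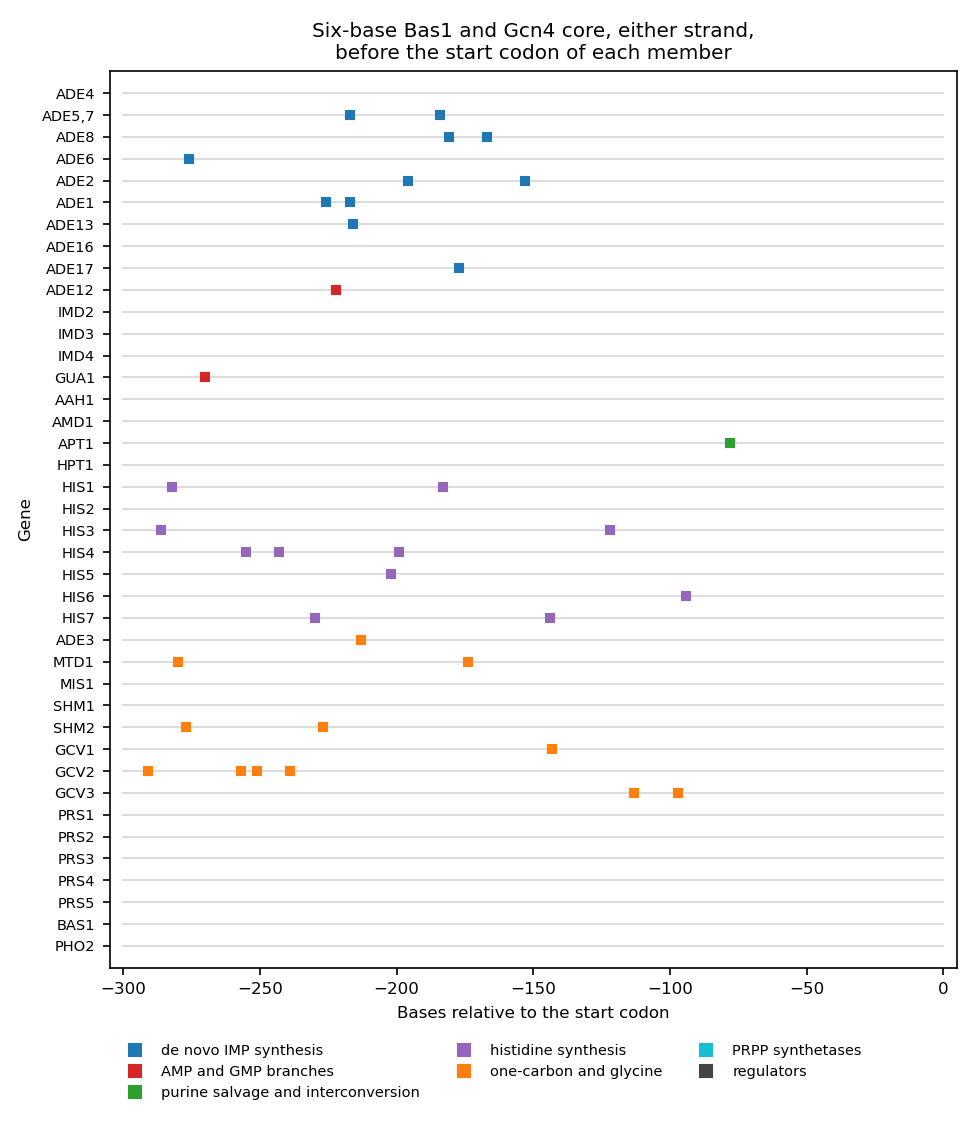
Positions of TGACTC on either strand (squares) along the 300 bases before the start codon of each of the 40 genes, coloured by role, with bases relative to the start codon on the x axis. The core is present before 22 genes and absent from the windows of all 5 PRPP synthetases and both regulators.

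In WT the 40 genes were mostly highest at time point 2. The peak of the group means stood at time point 2 for 33 of the 40 (82.5%), against 29.6% of all 6256 genes tested, and the median range from trough to peak was 1.91 on the log2 CPM scale against 1.04 for all genes. All 9 genes of IMP synthesis except ADE16, all 5 of the AMP and GMP branches, all 8 one-carbon genes and all 5 PRPP synthetases peaked there. AMD1, AMP deaminase, and BAS1 peaked at time point 1. HIS2 peaked at time point 3, and HIS4, HIS5, ADE16 and PHO2 at time point 5. All 40 genes changed over the WT cycle in an F test at an adjusted p of 0.05, where 81.5% of all genes did. All 40 also changed over the W89A cycle, where 75.5% of all genes did. The calls of HIS2, HIS4 and HIS5 in WT were lost when any 1 of the 3 WT cycles was left out.

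In W89A fewer of them peaked at time point 2. There the peak stood at time point 2 for 24 of the 40 (60%) and at time point 3 for 11. Of all 6256 genes, 1917 (30.6%) peaked at time point 2 and 1059 at time point 3. Of the 33 genes that peaked at time point 2 in WT, 22 did so in W89A, 8 peaked at time point 3, 2 at time point 1 (GCV1 and GCV2) and 1, IMD2, at time point 4. These peaks are those of group means and were not tested. By the test, only HIS4, HIS5, IMD2 and PHO2 rose from time point 2 to 3 in W89A. None of them is among the 8 genes. The median range was 2.01 on the log2 scale, against 0.93 for all genes. For HIS genes the median range was 0.93 in WT and 2.23 in W89A.

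**Figure D2:**
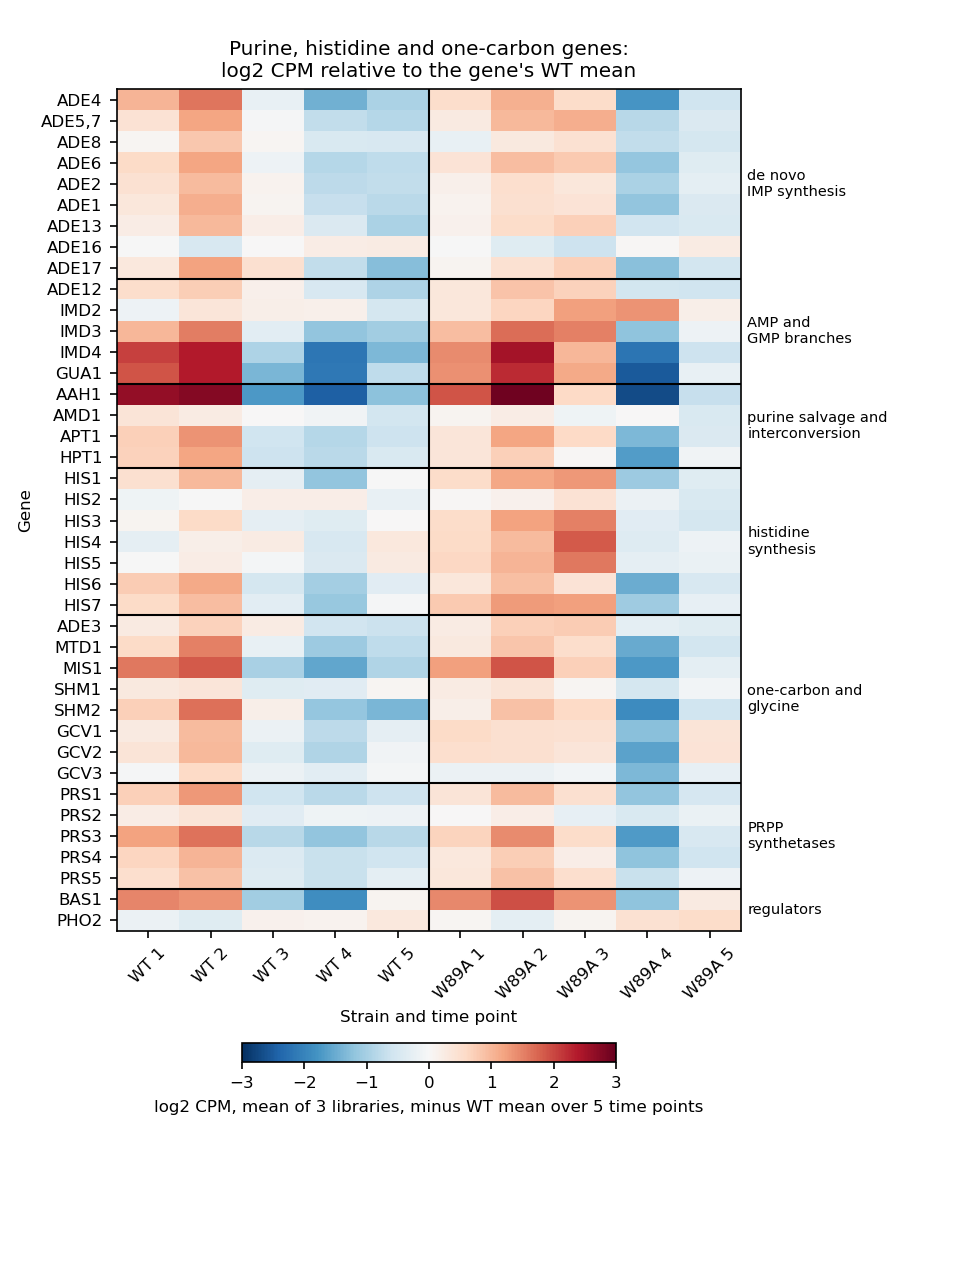
Mean log2 CPM of 3 libraries for each of the 40 genes (rows, by role) in each strain and time point (columns), relative to the gene's mean over the 5 WT time points. Most rows are red at WT time points 1 and 2 and blue from time point 3 on, while in W89A many stay red at time point 3.

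The step from time point 2 to time point 3 set the strains apart. In WT 34 of the 40 genes fell over this step and 2, ADE16 and PHO2, rose, where 61% of all genes changed, 31.1% falling and 29.9% rising. In W89A 14 fell and 4 rose (HIS4, HIS5, IMD2 and PHO2), where 30.9% of all genes changed, 16.6% falling and 14.3% rising. The difference between the steps passed the test for 32 genes, 31 of them with the step less negative, or positive, in W89A and 1, ADE16, with it lower, where 35.9% of all genes passed, 19.1% higher and 16.8% lower. The median step was -1.24 in WT and -0.17 in W89A on the log2 scale, while the medians of all genes were 0.00 and 0.01. In WT the 8 falling genes of IMP synthesis dropped by 0.74 to 1.83, and in W89A 0 of these 9 genes passed the test. All 5 PRPP synthetases and all 4 salvage genes fell in both strains. In W89A, the steps of HIS4, HIS5, IMD2, APT1, HPT1, SHM1, PRS1, PRS4, PRS5, BAS1, GUA1 and PHO2 each lost their call in at least 1 of 6 fits that left out a library. The W89A count was 7 when the cycle 1 or the cycle 2 library of its time point 3 was left out. Of all genes, 1244 and 1223 were called in these fits. The W89A count was 21 without the cycle 3 library.

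**Figure D3:**
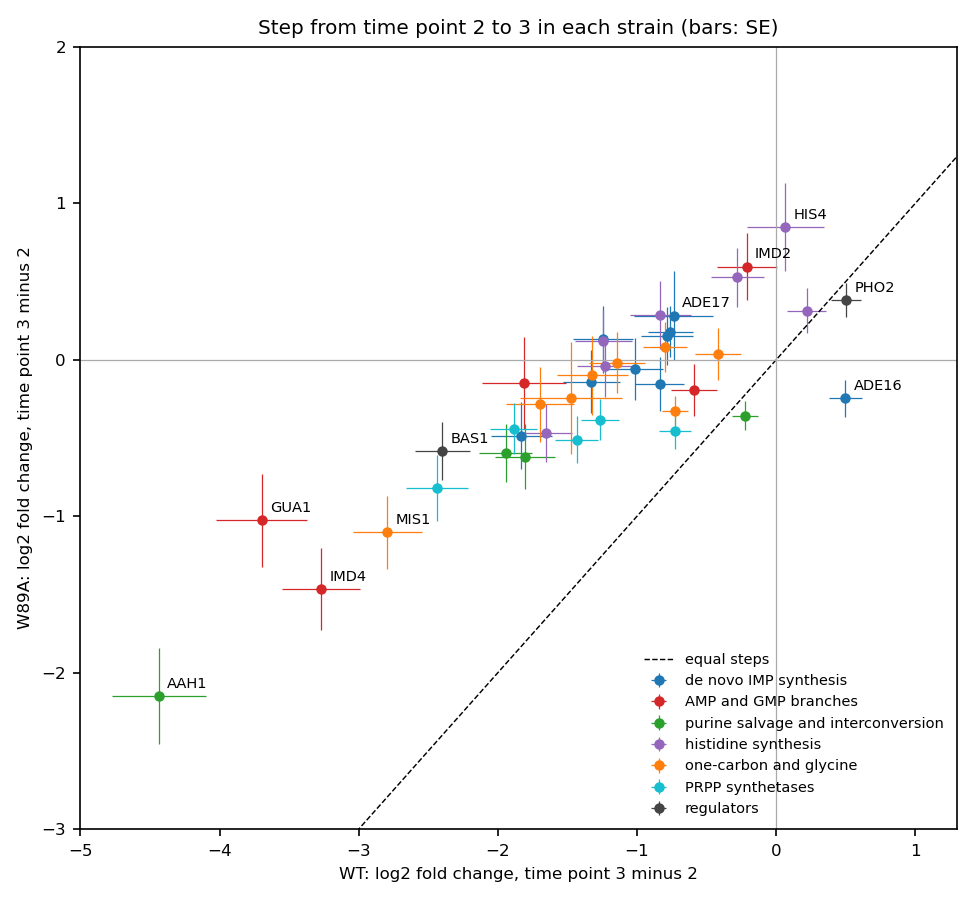
The log2 fold change from time point 2 to 3 in WT (x axis) and in W89A (y axis) for the 40 genes, with standard errors as bars, colours for the 7 roles and a dashed line where both steps are equal. Nearly all genes lie above the line, from AAH1 at -4.44 and -2.15 to HIS4 at 0.07 and 0.85, while ADE16, AMD1 and PHO2 lie below it.

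At time point 3 most of the genes were higher in W89A. Of the 40 genes, 30 were higher and 1, ADE16, was lower, where 51.1% of all genes differed, 28.2% of them higher and 22.9% lower as shares of the genes tested. The median difference was 0.77 on the log2 scale against 0.08 for all genes. The 3 WT and 3 W89A libraries did not overlap for 31 genes in the higher direction and 1 in the lower, against 32.5% and 27.3% of all genes. The 9 genes that did not pass were ADE1, ADE2, ADE17, AMD1, HIS2, SHM2, GCV3, PRS2 and PHO2. The count was 25 without the W89A cycle 3 library, in which most of the 40 genes were highest, and 26 without the WT cycle 3 library. Of all genes, 2813 were called without the WT cycle 3 library, against 3197 with all libraries. Leaving mitochondrial genes and the 10 genes of highest count out of the scaling moved the median of all genes by -0.13 on the log2 scale and gave 26 higher and 2 lower, while the higher share of all calls went from 55.3% to 43.2%.

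**Figure D4:**
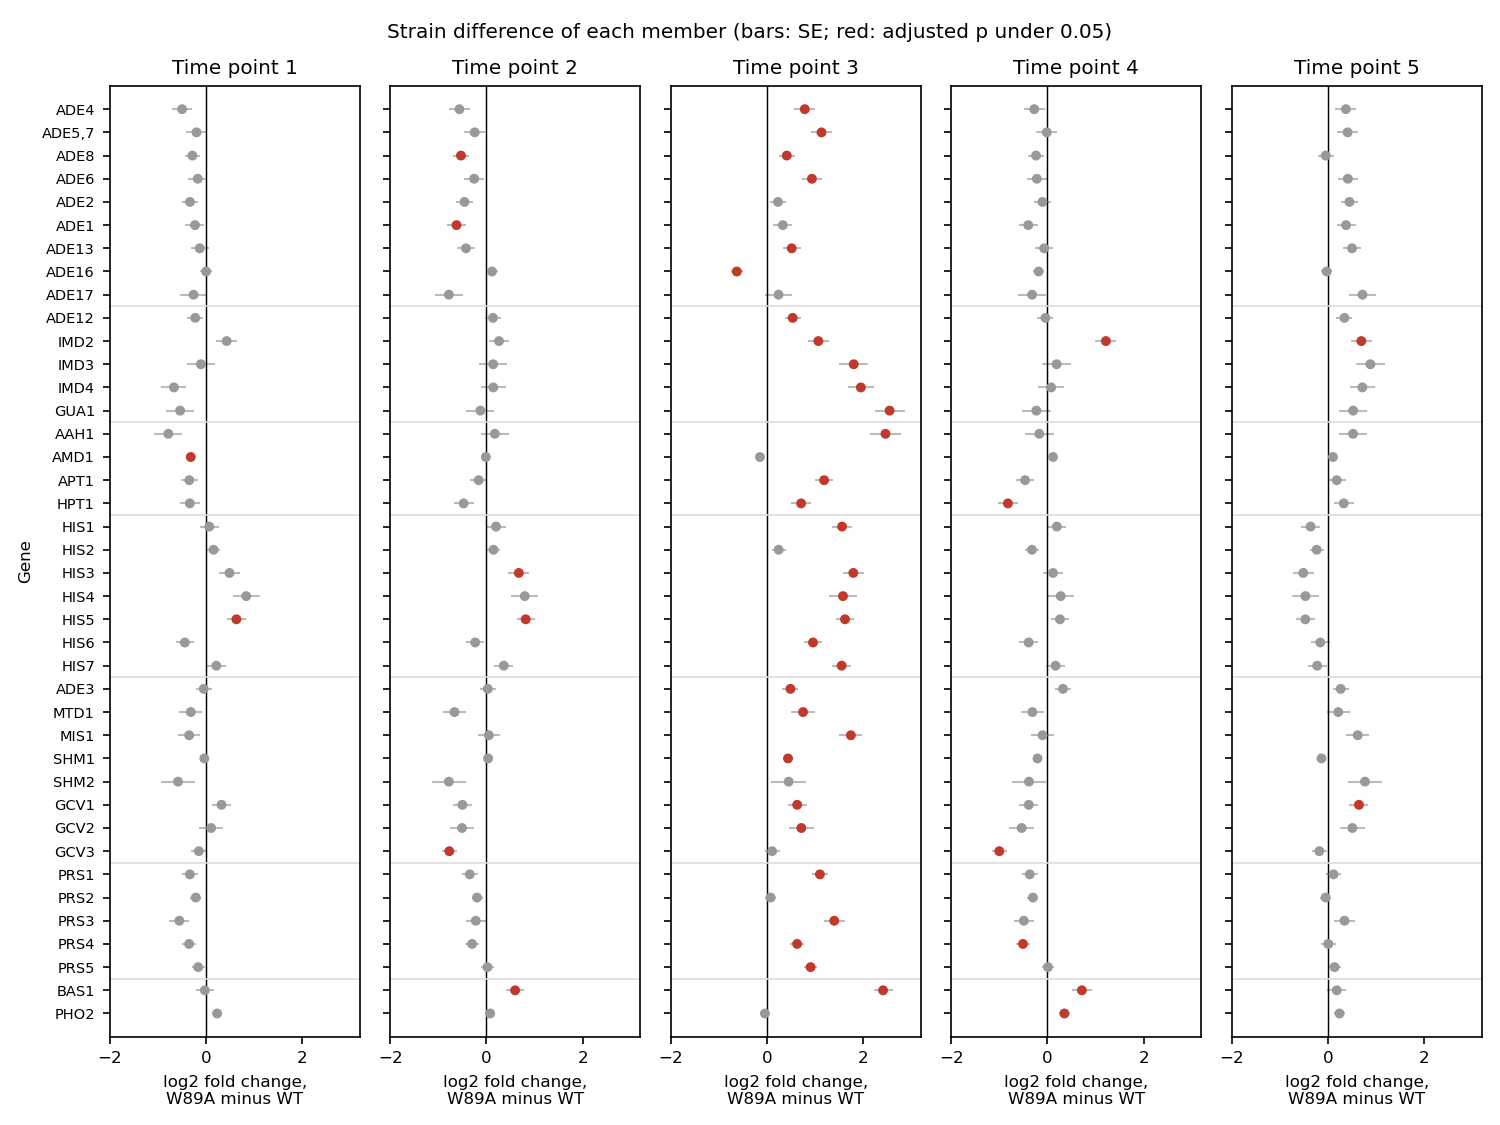
The log2 fold change of W89A over WT for each of the 40 genes at the 5 time points, with standard errors as bars and red points where the adjusted p was under 0.05. Red points to the right of 0 fill time point 3, and 2 to 6 genes pass at each of the other time points.

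In the route to IMP, 5 of 9 genes were higher in W89A at time point 3 and 1 was lower. ADE4 encodes PRPP amidotransferase, the first committed enzyme (chrXIII:865559-867091, minus strand). In WT it stood at 477, 334 and 352 CPM at time point 1, 669, 571 and 514 at time point 2, 153, 200.4 and 139.5 at time point 3, 73.5, 58.98 and 79.8 at time point 4 and 102, 91.9 and 99.1 at time point 5, in cycles 1, 2 and 3. In W89A it stood at 273, 307 and 247 CPM at time point 1, 394, 424 and 372 at time point 2, 227, 250.3 and 374 at time point 3, 43.8, 44.2 and 87.4 at time point 4 and 140.1, 121 and 118 at time point 5. The strains overlapped at no time point but 4, and W89A was the lower at time points 1 and 2 and the higher at 3 and 5. The log2 difference at time point 3 was 0.79 ± 0.21, adjusted p = 0.00332, and the step differed by 1.35 ± 0.30, adjusted p = 0.00115.

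ADE5,7 (the GAR and AIR synthetases) and ADE6 (FGAM synthetase) moved the same way. ADE5,7 stood at 969.6, 1086 and 791 CPM in WT and 1896, 2027 and 2322 in W89A at time point 3, a difference of 1.13 ± 0.22, adjusted p = 1.06e-04. ADE6 stood at 492, 565 and 444 CPM in WT and 846, 891 and 1134 in W89A there, a difference of 0.94 ± 0.20, adjusted p = 4.11e-04. For both genes every W89A library was above every WT library. ADE13, adenylosuccinate lyase, and ADE8, GAR transformylase, differed by 0.51 ± 0.19, adjusted p = 0.0234 and 0.41 ± 0.16, adjusted p = 0.0354, and both calls were lost without the W89A cycle 3 or the WT cycle 3 library. The ADE8 call was kept in 2 of 6 fits that left out a library. ADE2 and ADE1, whose loss turns colonies red, differed by 0.23 ± 0.17 and 0.33 ± 0.20 and did not pass.

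ADE16 and ADE17 encode isozymes of the last pair of steps to IMP. In the WT means, each peaked at the time point where the other was lowest. In WT, ADE17 stood at 1518, 1140.5 and 1037 CPM at time point 1, 2606, 2467 and 1773 at time point 2, 1487, 1511 and 1110.3 at time point 3, 555, 702 and 520.5 at time point 4 and 451, 344 and 417 at time point 5, while ADE16 stood at 178, 221 and 234 CPM at time point 1, 137, 152 and 166 at time point 2, 208, 212 and 223 at time point 3, 243, 254 and 249 at time point 4 and 225, 283 and 255 at time point 5. ADE16 was thus lowest where ADE17 was highest. In W89A, ADE17 stood at 1056, 1103 and 940.2 CPM at time point 1, 1359.6, 1415 and 1216 at time point 2, 1456, 1554 and 1847 at time point 3, 267, 289 and 869 at time point 4 and 746, 628 and 619 at time point 5, and ADE16 at 186, 237 and 213 CPM at time point 1, 146, 159.8 and 188 at time point 2, 134, 149 and 133 at time point 3, 212, 240.1 and 204 at time point 4 and 254, 234 and 261 at time point 5. In these W89A libraries the mean of ADE16 was lowest at time point 3, where that of ADE17 was highest. Neither W89A step from time point 2 to 3 passed. It was 0.28 ± 0.28, adjusted p = 0.49 for ADE17 and -0.25 ± 0.12, adjusted p = 0.125 for ADE16. From time point 4 to 5 both rose in W89A, ADE17 from 8.67 to 9.37 and ADE16 from 7.77 to 7.96 in mean log2 CPM. The ADE17 to ADE16 ratio of CPM was 15.3 ± 4.27 (SD, n = 3) in WT at time point 2 and 6.43 ± 1.26 at time point 3. In W89A it was 8.22 ± 1.55 at time point 2 and 11.7 ± 1.87 at time point 3. These ratios were not tested. ADE16 was the only member that was lower in W89A at time point 3 (-0.63 ± 0.12, adjusted p = 1.03e-04), and its step differed by -0.74 ± 0.17, adjusted p = 0.00123. It also differed on average over the cycle (-0.14 ± 0.05, adjusted p = 0.029), a call that was lost without WT cycle 2, WT cycle 3 or W89A cycle 1. The individual values of ADE17 and of ADE16 outside time point 3 were singled out after they were seen.

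**Figure D5:**
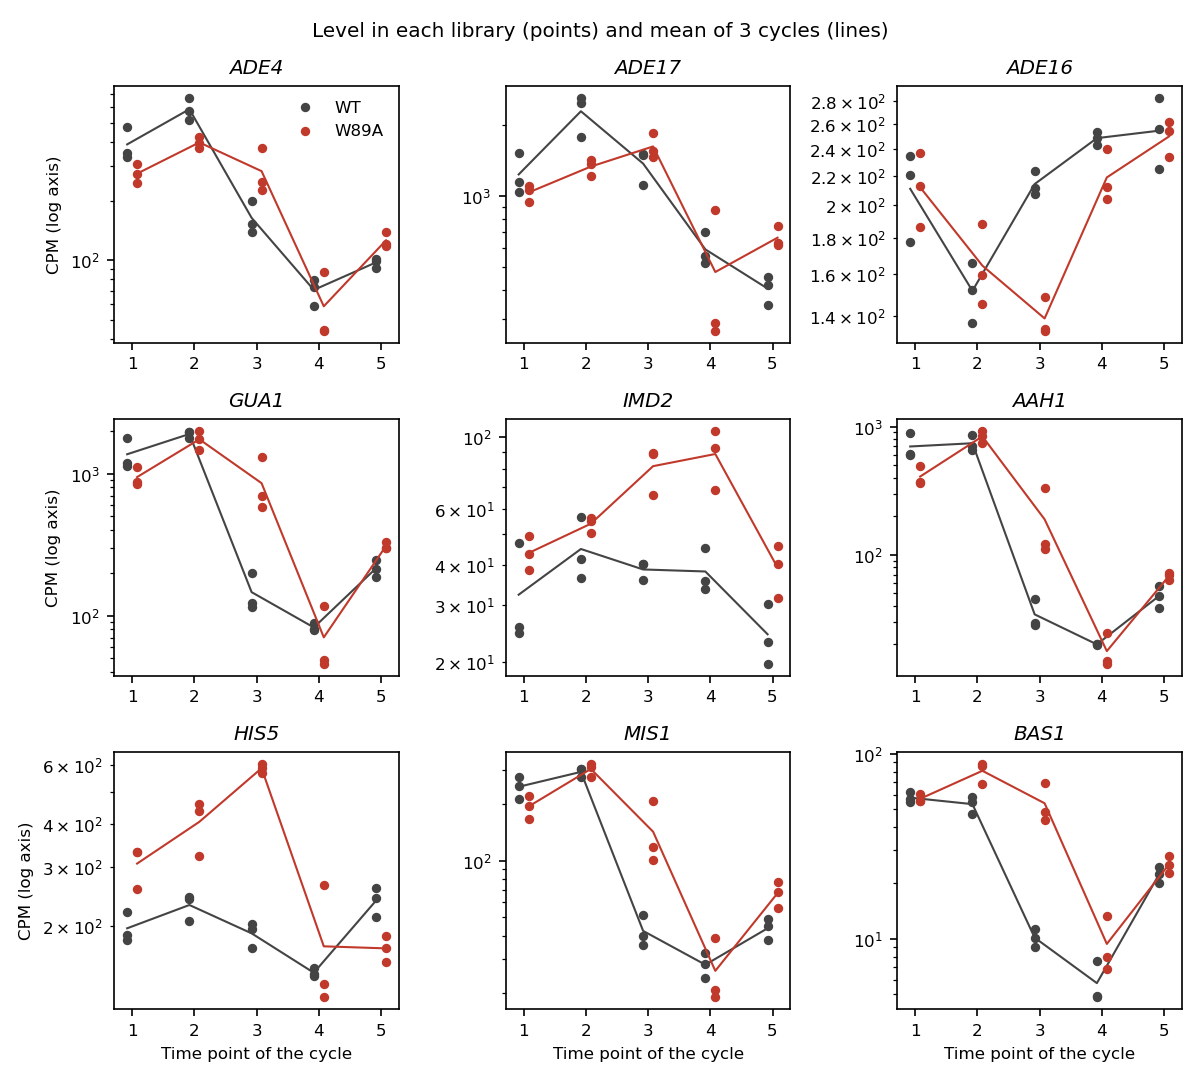
CPM on log axes at each time point for 9 of the genes, with a point for each library and lines through the means of 3 cycles, WT in dark grey and W89A in red. At time point 3 the W89A points lie above all WT points for ADE4, GUA1, IMD2, AAH1, HIS5, MIS1 and BAS1 and below them for ADE16, and ADE17 overlaps.

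The AMP and GMP branches had the largest median strain difference of the 7 roles at time point 3, 1.80 on the log2 scale, and all 5 genes were higher in W89A. GUA1 encodes GMP synthase (chrXIII:701790-703367, plus strand). WT held 1794, 1188 and 1129 CPM at time point 1, 1798, 1952 and 1959 at time point 2, 123, 201 and 115 at time point 3, 88.6, 78.9 and 80.5 at time point 4 and 245, 189 and 214 at time point 5. W89A held 1123, 849 and 868 CPM at time point 1, 1762, 2001 and 1476 at time point 2, 580.3, 692 and 1301 at time point 3, 48.7, 45.6 and 117 at time point 4 and 302, 329 and 300.1 at time point 5. The libraries of both strains overlapped at time point 2, and at time point 3 the highest WT library was below the lowest W89A library. The difference at time point 3 was 2.55 ± 0.31, adjusted p = 4.08e-07, and the step from time point 2 was -3.70 ± 0.33 in WT and -1.03 ± 0.30 in W89A. The call for the W89A step was lost without its time point 3 library of cycle 1 or of cycle 2.

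IMD3 and IMD4 encode IMP dehydrogenase, which commits IMP to GMP. IMD4 (chrXIII:162194-164176, minus strand) stood at 633, 379 and 398 CPM at time point 1, 575, 519 and 619.6 at time point 2, 48.4, 75.3 and 53.7 at time point 3, 24.1, 25.8 and 22.96 at time point 4 and 42.5, 40.6 and 46.7 at time point 5 in WT. The W89A libraries held 364, 269 and 258 CPM at time point 1, 669.8, 729 and 495 at time point 2, 168, 187 and 332 at time point 3, 19.7, 17.8 and 39.03 at time point 4 and 72.8, 74.3 and 65.7 at time point 5. Its W89A libraries were all above the WT libraries at time points 3 and 5, and all below them at time point 1, and the difference was 1.95 ± 0.27, adjusted p = 2.37e-06 at time point 3. IMD3 differed there by 1.80 ± 0.30, adjusted p = 2.69e-05. ADE12, adenylosuccinate synthetase on the AMP side, differed by 0.54 ± 0.17, adjusted p = 0.00827.

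IMD2, another IMP dehydrogenase gene whose transcription is known to respond to guanine nucleotides, took another course. The WT libraries held 46.8, 25.7 and 24.5 CPM at time point 1, 56.4, 36.5 and 41.8 at time point 2, 40.2, 40.3 and 35.8 at time point 3, 45.1, 33.8 and 35.8 at time point 4 and 30.3, 23.1 and 19.6 at time point 5. Levels in W89A were 49.2, 38.5 and 43.2 CPM at time point 1, 54.9, 56.2 and 50.5 at time point 2, 88.5, 89.3 and 66.4 at time point 3, 92.9, 105 and 68.7 at time point 4 and 45.99, 40.3 and 31.6 at time point 5. The W89A libraries were above all WT libraries at time points 3, 4 and 5, and the W89A peak came at time point 4, where GUA1, IMD3 and IMD4 were at their lowest. The difference was 1.21 ± 0.22, adjusted p = 6.99e-04 at time point 4, 1.07 ± 0.22, adjusted p = 2.12e-04 at time point 3 and 0.73 ± 0.10, adjusted p = 1.61e-06 on average. IMD2 made up 17.3% ± 3.01 (SD, n = 3) of the summed CPM of IMD2, IMD3 and IMD4 in WT at time point 4. In W89A the share was 34.7% ± 16.4, from 15.7% in the cycle 3 library to 44.3%. The order was reversed at time point 3, with 10.3% ± 2.25 in WT and 6.27% ± 1.90 in W89A, and at time point 5 it was 9.99% ± 1.67 and 9.06% ± 1.36. These shares were not tested. IMD1 is a near-identical copy of IMD2, and it held 634 counts over the 30 libraries against 26706 for IMD2. The division of reads between such copies is uncertain.

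Among the salvage genes, AAH1 had the largest range of all 40. It encodes adenine deaminase, which turns adenine into hypoxanthine (chrXIV:359596-360639, plus strand). Levels in WT were 896, 608 and 597 CPM at time point 1, 655, 707 and 863 at time point 2, 28.4, 44.9 and 29.4 at time point 3, 19.95, 19.9 and 20.1 at time point 4 and 56.7, 38.5 and 48.04 at time point 5. In W89A it stood at 489.7, 363 and 370.5 CPM at time point 1, 845, 926 and 746 at time point 2, 110.2, 122 and 335 at time point 3, 14, 14.8 and 24.3 at time point 4 and 63.96, 69.6 and 71.8 at time point 5. The range was 5.20 in WT and 5.60 in W89A on the log2 scale. At time point 3 every W89A library was above every WT library, with the cycle 3 library the highest, and the difference was 2.46 ± 0.31, adjusted p = 8.82e-07. Without that library it was 1.76. At time point 1 every W89A library was below every WT library, a difference of -0.78 ± 0.29 that did not pass (adjusted p = 0.0977).

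APT1 and HPT1, the phosphoribosyltransferases that return adenine, hypoxanthine and guanine to nucleotides, differed by 1.19 ± 0.19, adjusted p = 8.82e-06 and 0.71 ± 0.21, adjusted p = 0.0061 at time point 3. The HPT1 call was lost without the W89A cycle 3 library. AMD1 varied less, with ranges of 0.94 in WT and 0.68 in W89A. Its difference of -0.31 ± 0.09, adjusted p = 0.0353 at time point 1 passed, and was lost in 5 of 6 fits that left out a library.

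At time point 3, 6 of the 7 HIS genes were higher in W89A. HIS2, HIS3, HIS4 and HIS5 had ranges of 0.42 to 0.93 over the WT cycle and of 0.90 to 2.23 in W89A on the log2 scale, and all 7 genes peaked at time point 2 or 3 in W89A. HIS5 encodes histidinol-phosphate aminotransferase (chrIX:142928-144085, plus strand). In WT it stood at 221, 182 and 188 CPM at time point 1, 244, 241 and 207 at time point 2, 196, 202 and 173 at time point 3, 150.1, 142 and 144 at time point 4 and 213, 242 and 259 at time point 5. W89A held 331, 331 and 257 CPM at time point 1, 461, 439 and 322 at time point 2, 588, 603 and 569 at time point 3, 123, 134 and 265 at time point 4 and 156, 172 and 187 at time point 5. The W89A libraries were above all WT libraries at time points 1, 2 and 3 and below all of them at time point 5. The difference was 1.62 ± 0.19, adjusted p = 2.66e-07 at time point 3 and 0.82 ± 0.19, adjusted p = 0.00624 at time point 2. It was 0.64 ± 0.19, adjusted p = 0.0396 at time point 1, a call kept in 1 of 6 fits that left out a library.

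HIS4, whose enzyme carries out several steps of the route, stood at 574, 538 and 468 CPM in WT and 1600.4, 1697 and 1428 in W89A at time point 3, a difference of 1.58 ± 0.28, adjusted p = 5.86e-05. HIS3, imidazoleglycerol-phosphate dehydratase and a common selection marker, stood at 153, 144 and 167 in WT and 519.5, 586 and 503 in W89A, a difference of 1.80 ± 0.22, adjusted p = 5.09e-07. Neither gene overlapped between strains. HIS1, the ATP phosphoribosyltransferase that opens the route, and HIS7, which releases AICAR, differed by 1.56 ± 0.20, adjusted p = 8.41e-07 and 1.55 ± 0.20, adjusted p = 7.18e-07. The summed CPM of the 7 HIS genes at time point 3 was 1376 ± 73.9 in WT and 4031 ± 124 in W89A (SD, n = 3). At time point 5 it was 1550.4 ± 167 in WT and 1167 ± 90.1 in W89A. No HIS gene passed at time point 5, where all 7 had a lower mean in W89A, from -0.16 to -0.51.

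HIS6, the ProFAR isomerase (chrIX:314035-314820, minus strand), had the largest WT range of the HIS genes, 2.15. WT held 77.5, 66.1 and 55.5 CPM at time point 1, 102, 79.8 and 74.5 at time point 2, 23.9, 27.9 and 29.3 at time point 3, 19.1, 19.8 and 18.1 at time point 4 and 36.7, 24.7 and 31.3 at time point 5. The W89A libraries held 52.1, 51.3 and 43.8 CPM at time point 1, 76.4, 76.5 and 65.2 at time point 2, 46.7, 42.8 and 68.1 at time point 3, 12.97, 10.2 and 20.04 at time point 4 and 27.5, 27.96 and 27.5 at time point 5. W89A was above WT in every library at time point 3 (0.96 ± 0.19, adjusted p = 1.59e-04) and below it in every library at time point 1 (-0.44 ± 0.19, adjusted p = 0.134). Small annotated features overlap HIS3, HIS6 and IMD4 on the same strand and held 475, 133 and 117 counts in all, against 137582, 24696 and 134377 for the genes. HIS2, histidinol-phosphate phosphatase, differed by 0.25 ± 0.14 at time point 3 and did not pass.

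In one-carbon metabolism the mitochondrial MIS1 moved most. It encodes the mitochondrial C1-tetrahydrofolate synthase (chrII:411054-413981, plus strand). The WT libraries held 278, 211 and 247 CPM at time point 1, 276, 304 and 304 at time point 2, 39.9, 51.7 and 35.7 at time point 3, 23.8, 32.2 and 28.2 at time point 4 and 48.8, 37.8 and 44.8 at time point 5. Levels in W89A were 195, 219 and 165 CPM at time point 1, 314, 324 and 278 at time point 2, 101, 118 and 207 at time point 3, 20.7, 18.8 and 38.7 at time point 4 and 77.3, 67.9 and 56.3 at time point 5. The strains were apart at time points 3 and 5, with W89A higher, and the difference was 1.75 ± 0.24, adjusted p = 2.37e-06 at time point 3 and 0.62 ± 0.24, adjusted p = 0.0949 at time point 5. ADE3, its cytosolic counterpart, differed by 0.49 ± 0.17, adjusted p = 0.0158 at time point 3, and MTD1, a methylenetetrahydrofolate dehydrogenase, by 0.75 ± 0.24, adjusted p = 0.0116. Both calls were lost without the W89A cycle 3 or the WT cycle 3 library.

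SHM2, the cytosolic serine hydroxymethyltransferase, was the most abundant of the 40 genes per length in WT, at a mean of 1965 CPM per kilobase over the 15 libraries, against 12.3 for BAS1, the least abundant. At time point 2 it stood at 7315, 6718 and 5240.1 CPM in WT and 3621, 4175 and 3442 in W89A, and the libraries did not overlap. At time point 3 it stood at 2487, 2611 and 1843 in WT and 2417, 2687 and 4384 in W89A, where they did. SHM2 passed at no single time point; the values at time points 2 and 3 were -0.78 ± 0.36 and 0.45 ± 0.36. SHM1, the mitochondrial isozyme, had a range of 0.73 in WT and differed by 0.44 ± 0.09, adjusted p = 3.41e-04 at time point 3.

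GCV1, GCV2 and GCV3 encode the T, P and H proteins of the glycine decarboxylase complex. GCV1 and GCV2 were higher in W89A at time point 3, by 0.63 ± 0.20, adjusted p = 0.00955 and 0.72 ± 0.26, adjusted p = 0.0213, the latter lost without the W89A cycle 3 or the WT cycle 3 library. GCV3 stood at 299, 237 and 223 CPM in WT and 137, 178 and 131 in W89A at time point 2, and at 139.6, 122 and 135 and 47.8, 72.8 and 77.6 at time point 4. W89A was lower in every library at both. The differences were -0.77 ± 0.16, adjusted p = 0.0024 and -1.0 ± 0.16, adjusted p = 2.81e-04, and both calls were kept whichever library of the time point was left out. GCV1 and GCV2 differed by -0.50 ± 0.20 and -0.50 ± 0.25 at time point 2 and did not pass. At time point 4 without the W89A cycle 3 library all 3 were lower. The differences were -0.75 (adjusted p = 0.00461) for GCV1, -1.19 (adjusted p = 1.56e-04) for GCV2 and -1.13 (adjusted p = 1.56e-04) for GCV3. That library was chosen after seeing the data, so the values without it are a description.

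The PRPP synthetases fell from time point 2 to 3 in both strains, less steeply in W89A for 4 of the 5. PRS3 (chrVIII:80654-81616, minus strand) stood at 629.8, 413 and 448 CPM at time point 1, 722, 613 and 647 at time point 2, 94.3, 158 and 114 at time point 3, 86.7, 86.3 and 109.6 at time point 4 and 130.3, 109 and 117 at time point 5 in WT. In W89A it stood at 381, 334 and 303 CPM at time point 1, 572, 635 and 494 at time point 2, 242, 295 and 428 at time point 3, 55.3, 53.8 and 91.9 at time point 4 and 149, 151 and 152 at time point 5. W89A was above WT in every library at time points 3 and 5 and below it in every library at time point 1. The difference was 1.40 ± 0.21, adjusted p = 6.93e-06 at time point 3. PRS1 (chrXI:107316-108599, plus strand) stood at 713, 556 and 613 CPM at time point 1, 1097, 894 and 822 at time point 2, 220.3, 308 and 233 at time point 3, 203, 219.7 and 232 at time point 4 and 256, 239 and 249 at time point 5 in WT. W89A held 537, 485 and 474 CPM at time point 1, 759, 794 and 663 at time point 2, 435, 491 and 707 at time point 3, 147, 159 and 203 at time point 4 and 287, 271 and 248 at time point 5. At time point 3 the strains were apart by 1.10 ± 0.16, adjusted p = 5.38e-06, and at time points 1 and 2 every W89A library was below every WT library. PRS5 and PRS4 differed by 0.91 ± 0.13, adjusted p = 4.52e-06 and 0.63 ± 0.15, adjusted p = 0.00108 at time point 3. PRS2 differed by 0.08 ± 0.11 there and did not pass.

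Of the regulators, BAS1 was higher in W89A at time points 2, 3 and 4, and PHO2 at time point 4. BAS1 (chrXI:635851-638286, plus strand) stood at 62.1, 57.03 and 54.6 CPM at time point 1, 47.1, 54.9 and 58.2 at time point 2, 10.1, 11.3 and 9.06 at time point 3, 7.57, 4.88 and 4.82 at time point 4 and 20.01, 24.5 and 22.4 at time point 5 in WT. The W89A libraries held 60.2, 55.7 and 55.3 CPM at time point 1, 87.9, 86.1 and 68.7 at time point 2, 43.7, 48.6 and 69.7 at time point 3, 6.85, 8.002 and 13.3 at time point 4 and 22.7, 25.03 and 28.2 at time point 5. The libraries overlapped at time points 1, 4 and 5, and at time points 2 and 3 every W89A library was above every WT library. The difference at time point 3 was 2.41 ± 0.20, adjusted p = 3.06e-09, the smallest p of the 40 genes there. It was 0.60 ± 0.18, adjusted p = 0.0312 at time point 2 and 0.71 ± 0.21, adjusted p = 0.019 at time point 4. Without the W89A cycle 3 library the last was 0.37 (adjusted p = 0.207), and it was also lost without WT cycle 2 or WT cycle 3 of that time point. The WT levels at time points 3 and 4 were 4.82 to 11.3 CPM, among the lowest of the set. PHO2 stood at 41.5, 47.1 and 43.5 CPM in WT and 45.5, 43.5 and 39.4 in W89A at time point 3, where the strains overlapped. Its strain difference did not change over the cycle beyond the threshold (adjusted p = 0.188).

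The counts at time points 1 and 2 were smaller. At time point 1, 2 genes passed, where 8.01% of all genes did. HIS5 was higher and AMD1 lower, against 4.41% of all genes higher and 3.6% lower. The libraries did not overlap for 3 genes in the higher direction and 12 in the lower, against 16% and 19.1% of all genes. The calls were 0 when any 1 of the 3 WT libraries of this time point was left out. Of all genes, 73, 474 and 202 were called without WT cycles 1, 2 and 3. At time point 2, 6 genes passed, where 13.1% of all genes did, 8.44% higher and 4.64% lower. HIS5, HIS3 (0.68 ± 0.22, adjusted p = 0.0407) and BAS1 were higher. GCV3, ADE1 (-0.62 ± 0.20, adjusted p = 0.0386) and ADE8 (-0.53 ± 0.16, adjusted p = 0.0321) were lower. The libraries did not overlap for 13 genes in the lower direction and 5 in the higher, against 15.7% and 17.3% of all genes. Only HIS5 and GCV3 were called whichever library of time point 2 was left out. The count and its balance depended on the fit. DESeq2 called 4 genes higher and 7 lower, where it called 16.8% of all genes, 9.93% higher and 6.85% lower. The 6 libraries of the time point alone gave 4 higher and 9 lower, against 10.5% of all genes, 6.73% higher and 3.79% lower. Without the WT cycle 1 library of time point 1 and the W89A cycle 3 library of time point 4, 4 were higher and 11 lower. Of all genes, 16.2% passed in that fit, 10.3% higher and 5.87% lower. Both libraries were chosen after seeing the data. The median difference of the 9 genes of IMP synthesis was -0.45 at time point 2 and 0.41 at time point 3.

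At time point 4 the count turned on a single library. With all libraries 6 genes passed, where 21.3% of all genes did, 10.9% higher and 10.5% lower. IMD2, BAS1 and PHO2 (0.35 ± 0.11, adjusted p = 0.0207) were higher, and GCV3, HPT1 (-0.82 ± 0.21, adjusted p = 0.00766) and PRS4 (-0.51 ± 0.15, adjusted p = 0.02) were lower. Without the W89A library of cycle 3, 22 genes passed, 20 of them lower and 2, IMD2 and PHO2, higher. Of all genes, 23.2% passed in that fit, 12.8% lower and 10.3% higher. The library had been singled out for the high share of its counts held by the same genes. Leaving it out thus tends to lower their W89A means by the choice itself. Values without it describe how far the count rests on that library and are no separate test of lower levels. The W89A libraries of SHM2 held 327, 349.7 and 1431 CPM, against 872, 1108 and 771 in WT. Its log2 difference was -0.38 ± 0.36 with all libraries and -1.44 (adjusted p = 3.18e-04) without cycle 3. Without it, GCV2 differed by -1.19 (adjusted p = 1.56e-04), ADE17 by -1.09 (adjusted p = 5.16e-04) and HPT1 by -1.10 (adjusted p = 0.00125). IMD2, GCV3 and HPT1 were called whichever library of time point 4 was left out.

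At time point 5 the sets of libraries were often apart while few differences passed. GCV1 (0.64 ± 0.20, adjusted p = 0.0404) and IMD2 (0.69 ± 0.22, adjusted p = 0.0481) were higher, 2 genes of 40, where 9.51% of all genes passed, 5.07% higher and 4.44% lower. The GCV1 call was kept in 1 of 6 fits that left out a library and the IMD2 call in 2. The libraries did not overlap for 21 genes in the higher direction and 4 in the lower, against 19% and 16.9% of all genes. SHM2 stood at 881, 681 and 781 CPM in WT and 1363, 1358 and 1270.0 in W89A, a difference of 0.77 ± 0.36, adjusted p = 0.172. IMD3 stood at 188, 166 and 171 in WT and 325, 326 and 316 in W89A, a difference of 0.88 ± 0.30, adjusted p = 0.0602. A fit of only the 6 libraries of this time point, which takes the spread from them alone, called 22 genes, 18 higher and 4 lower. It called 18.1% of all genes, 9.01% higher and 9.07% lower. Without the WT cycle 1 library of time point 1 and the W89A cycle 3 library of time point 4, 14 genes passed at time point 5. Of these 12 were higher, and 13.3% of all genes passed, 7% higher and 6.27% lower. Both libraries were chosen after seeing the data. Without the W89A cycle 1 libraries at time points 4 and 5, 0 genes passed, where 116 of all genes did.

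Averaged over the 5 time points, 18 genes differed, where 48.8% of all genes did. Of these 15 were higher in W89A and 3 lower, against 27.1% and 21.7% of all genes. BAS1 (0.78 ± 0.09, adjusted p = 1.17e-07), IMD2, HIS4 (0.61 ± 0.12, adjusted p = 3.01e-04), IMD3 (0.58 ± 0.13, adjusted p = 7.83e-04), HIS5 (0.57 ± 0.08, adjusted p = 5.37e-06) and HIS3 (0.51 ± 0.10, adjusted p = 1.17e-04) were the highest. IMD4, AAH1 and GUA1 averaged 0.44, 0.44 and 0.44. HIS7, MIS1, HIS1, ADE3, PRS5 and PHO2 averaged 0.42, 0.39, 0.33, 0.21, 0.18 and 0.17 on the log2 scale. GCV3 (-0.40 ± 0.07, adjusted p = 5.59e-05), ADE16 and PRS2 (-0.13 ± 0.05, adjusted p = 0.0308) were lower. Of these, ADE16, GUA1, ADE3, PRS2, PRS5 and PHO2 lost their call in at least 1 of the 6 fits that left out a cycle of a strain. The count was 12 without WT cycle 3 and 24 without W89A cycle 3, where 2353 and 3104 of all genes passed.

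The strain difference changed over the cycle for 35 of the 40 genes (the interaction), where it did for 41.9% of all genes. BAS1 had the smallest adjusted p, 3.73e-06, followed by GUA1 (3.36e-05) and HIS5 (3.75e-05). ADE12, HIS2, ADE3, PRS2 and PHO2 did not pass. The count was 24 without WT cycle 1, where 1836 of all genes passed. It was 22 when the time points of the W89A cycle 1 libraries were taken from the title order, where 2010 of all genes passed. AMD1 lost its call in all 6 fits that left out a cycle of a strain. ADE17, IMD2, SHM2 and GCV2 kept theirs in 1 of the 6, and ADE1, ADE2, ADE8 and ADE13 in 3.

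The strains' difference at time point 3 was also present in other biosynthetic lists, where 28.2% of all genes were higher and 22.9% lower. The lists were chosen with earlier results of these data known, so their counts are a description. All 30 of the listed amino acid synthesis genes under Gcn4, with GCN4 itself, were higher in W89A there, with a median of 1.74 on the log2 scale. TRP4 (2.25 ± 0.19, adjusted p = 4.21e-09) and ARO3 (2.53 ± 0.22, adjusted p = 5.31e-09) had the smallest p. GCN4 differed by 0.55 ± 0.15, adjusted p = 0.00288. All 40 listed ribosome biogenesis genes were higher, with a median of 2.01, among them UTP20 (2.05 ± 0.22, adjusted p = 1.20e-07) and RRP12 (2.26 ± 0.26, adjusted p = 3.21e-07). Other genes of purine metabolism were mixed: of 21, 9 were higher, such as ADO1, adenosine kinase (1.06 ± 0.17, adjusted p = 1.40e-05), and APT2 (0.65 ± 0.11, adjusted p = 1.66e-05). A further 6 were lower, such as YNK1, nucleoside diphosphate kinase (-1.57 ± 0.17, adjusted p = 8.77e-08), and ADK2, a mitochondrial adenylate kinase (-0.99 ± 0.11, adjusted p = 1.34e-07). Of 24 other folate and one-carbon genes, 8 were higher, such as FOL2 (0.81 ± 0.13, adjusted p = 9.40e-06) and GLY1, threonine aldolase (1.17 ± 0.20, adjusted p = 2.03e-05). In the same list 7 were lower, such as AGX1, alanine:glyoxylate aminotransferase (-1.74 ± 0.23, adjusted p = 1.06e-06), and ABZ1 (-0.80 ± 0.13, adjusted p = 9.21e-06). Of 10 phosphate genes that use Pho2, 0 passed, by edgeR's test at an adjusted p of 0.05. Whether W89A was sampled at an earlier stage of its cycle at time point 3, and whether it differed at the same stage, cannot be told apart in these libraries.

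The medians of the genes with and without the core TGACTC in the window are given as a description and were not tested. The step from time point 2 to 3 in WT had a median of -1.08 for the 22 genes with the core and -1.62 for the 18 without, and in W89A the medians were -0.03 and -0.45. The strain difference at time point 2 had medians of -0.25 and 0.04. The strain difference at time point 3 had medians of 0.73 and 0.85, and the difference of steps had medians of 1.12 and 1.05.

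The authors' deposited tables compare the strains at each time point. At an adjusted p of 0.05, the authors' deposited table for time point 3 calls 30 of the 40 genes higher and 1 lower, with 45.4% of all genes called. At time point 5 the authors' deposited table calls 23 of the 40, 19 higher and 4 lower, with 19% of all genes called. For time point 1 the authors' deposited table calls 7 of the 40, where it calls 16.5% of all genes. For time point 2 the authors' deposited table calls 16, 4 higher and 12 lower, where it calls 14.4% of all genes. For time point 4 the authors' deposited table calls 5, where it calls 17% of all genes. These tables were made from the same libraries.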

How the data were processed

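Total RNA of 30 chemostat samples was sequenced. The authors deposited raw counts per gene, but their aligner, counter and strand setting are not given in the sources used here. Only the mouse build mm9 is named in the submitters' processing notes, while the count table carries yeast identifiers. Start and end of all 40 genes equal those of R64, as for 5889 of 5898 matched genes. The authors' deposited comparison tables hold log2 fold changes and p-values, used for the placement of 2 libraries and for the last paragraph of the results.

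Counts were fitted with edgeR 4.0.16 (R 4.3.3, limma 3.58.1), with TMM scaling, filterByExpr and the robust quasi-likelihood test, on all 30 libraries with a mean per group. The filter removed 871 of 7127 features. Benjamini-Hochberg adjustment ran over the 6256 genes left, with a threshold of 0.05. The common biological coefficient of variation was 0.1639. Every adjusted p is from this test unless named otherwise, and ± after a log2 fold change is a standard error. The log2 CPM used a prior count of 2. The procedure was also run on simulated counts, drawn independently for each library. That run could not check whether the libraries of a cycle are independent. DESeq2 1.42.0, other scalings, no filter, the title order, left-out libraries and replicate blocks were alternatives.

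Cycle numbers did not pair the strains: 3 of 15 correlations of same-numbered deviations were over 0.1. Between time points of the same cycle within a strain, 9 of 30 were over 0.1 in W89A and 7 of 30 in WT. They ran from -0.25 to 0.39 in W89A and from -0.05 to 0.26 in WT. The main fit takes the libraries of a cycle as independent. The members and gene lists were chosen with earlier results of these data known. All library values are given, for each role, for the gene of largest WT range and the gene of smallest interaction p. Named beyond that are the 3 highest and 3 lowest called genes per strain comparison, all genes called on average, and up to 2 genes per other list and direction. Other genes were named after their values were seen.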

Additional observations from a re-analysis of the deposited data

Results flagged for a closer look

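The strain difference changed over the cycle for 35 of the 40 genes, by an interaction test in edgeR over 4 contrasts of time points. Of all genes, 41.9% passed this test. The 35 genes are marked for a closer look, since their difference between the strains was not the same at all time points. Among the genes of IMP synthesis, the adjusted p of the interaction was 0.00203 for ADE4, 0.00273 for ADE5,7, 0.00371 for ADE6, 0.00618 for ADE16, 0.0131 for ADE1, 0.0145 for ADE13, 0.0169 for ADE2, 0.0173 for ADE8 and 0.0295 for ADE17. Among the genes of the AMP and GMP branches, the adjusted p of the interaction was 3.36e-05 for GUA1, 0.000114 for IMD4, 0.00356 for IMD3 and 0.0483 for IMD2. Among the genes of purine salvage, the adjusted p of the interaction was 5.14e-05 for AAH1, 0.000116 for APT1, 0.000932 for HPT1 and 0.0328 for AMD1. For histidine synthesis the adjusted p was 3.75e-05 for HIS5, 6.31e-05 for HIS3, 0.00012 for HIS1, 0.000216 for HIS7, 0.000758 for HIS6 and 0.00244 for HIS4. For one-carbon metabolism the adjusted p was 0.000186 for MIS1, 0.000989 for GCV3, 0.00175 for GCV1, 0.00243 for SHM1, 0.0118 for MTD1, 0.0134 for GCV2 and 0.0493 for SHM2. For the PRPP synthetases the adjusted p was 6.32e-05 for PRS1, 6.58e-05 for PRS3, 0.00054 for PRS5 and 0.000908 for PRS4. For the regulators the adjusted p was 3.73e-06 for BAS1. The calls of ADE17, IMD2, SHM2 and GCV2 were kept in 1 of 6 fits that left out a cycle of a strain, those of ADE1, ADE2, ADE8 and ADE13 in 3, and that of AMD1 in 0.

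The step from time point 2 to 3 differed between the strains for 32 of the 40 genes, tested in the same fit as the difference of the steps. Of all genes, 35.9% passed, 19.1% higher and 16.8% lower. The values below are the W89A step minus the WT step on the log2 scale. For IMP synthesis they were 0.95 for ADE1, 0.94 for ADE13, -0.74 for ADE16, 1.02 for ADE17, 0.68 for ADE2, 1.35 for ADE4, 1.38 for ADE5,7, 1.19 for ADE6 and 0.94 for ADE8. In the AMP and GMP branches they were 2.67 for GUA1, 0.81 for IMD2, 1.66 for IMD3 and 1.81 for IMD4. In purine salvage they were 2.29 for AAH1, 1.35 for APT1 and 1.18 for HPT1. For histidine synthesis they were 1.36 for HIS1, 1.12 for HIS3, 0.81 for HIS5, 1.19 for HIS6 and 1.19 for HIS7. In one-carbon metabolism they were 1.13 for GCV1, 1.22 for GCV2, 0.88 for GCV3, 1.69 for MIS1, 1.41 for MTD1 and 0.40 for SHM1. For the PRPP synthetases they were 1.45 for PRS1, 1.62 for PRS3, 0.92 for PRS4 and 0.89 for PRS5. For the regulators the value was 1.82 for BAS1. Of 12 fits that left out a library, the call was kept in 2 for ADE17, 3 for IMD2, 6 for ADE2 and 10 for HIS5 and for SHM1.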

How the results depend on the processing

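Under the alternatives run, 0 of the 266 called single results reversed. The F tests over the WT cycle, the W89A cycle and the interaction gave 40, 40 and 35 of these. They have no direction and could not reverse. The counts below are of called genes among the 40. Leaving out a library gave 0 to 1 at time point 1, 2 to 7 at time point 2, 25 to 31 at time point 3, 3 to 22 at time point 4 and 0 to 2 at time point 5. Leaving out a cycle of a strain gave 12 to 24 for the average, 36 to 40 over the WT cycle, 40 over the W89A cycle and 24 to 36 for the interaction. For the step from time point 2 to 3 the ranges were 33 to 35 in WT, 7 to 21 in W89A and 28 to 32 for the difference. The number of all genes called moved between these fits as well. Leaving out a library gave 73 to 474 of all genes at time point 1 and 668 to 1459 at time point 4. At time point 2 it was 319 without WT cycle 1 and 859 without WT cycle 3, with 2 and 7 of the 40. For the WT step it ran from 3528 to 3659. Leaving out a cycle gave 2353 to 3104 for the average and 4570 to 5133 over the WT cycle. It gave 3950 to 4740 over the W89A cycle and 1836 to 2365 for the interaction. The DESeq2 test called 4, 11 and 4 genes at time points 1, 2 and 5, where it called 12.7%, 16.8% and 14.2% of all genes. At time point 5, DESeq2 size factors, no filter and a scaling without mitochondrial genes and the 10 genes of highest count each called 1. Of all genes they called 585, 556 and 584. Leaving out the W89A cycle 1 libraries at time points 4 and 5 called 0 there, where 116 of all genes were called. The title order gave 0, 2, 3 and 1 at time points 1, 2, 4 and 5, where it called 178, 486, 1224 and 362 of all genes. It gave 7 for the step in W89A and 22 for the interaction, where it called 1356 and 2010 of all genes. The WT cycle 1 library of time point 1 and the W89A cycle 3 library of time point 4 were chosen after seeing the data. Leaving out both gave 15, 22 and 14 at time points 2, 4 and 5, where 16.2%, 24% and 13.3% of all genes were called. Fits of the 6 libraries of a time point alone gave 4, 13, 3 and 22 at time points 1, 2, 4 and 5. Of all genes they called 13.9%, 10.5%, 8.07% and 18.1% there. The scaling without mitochondrial and highest-count genes moved the median of all genes by 0.11 for the WT step and by -0.11 for the difference of steps, where the higher share of calls went from 53.1% to 42.1%. It kept 249 of the called single results, and the title order kept 213. The causes were not tested. A replicate block moved no count by over 1.5 times: with the cycle as a block within strain 31 genes were called at time point 3, and with cycle numbers shared by the strains 31. The labels tie the time points of a cycle within a strain only. The spread behind each test is that of 3 cycles per group.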
